A study of Mus musculus with 16 samples.

Results

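Transcripts of 10 genes that sense, signal or join broken DNA ends were followed in mouse cerebral cortex 20 h after gamma irradiation. The genes were Rad50, Nbn, Atr, Chek1, Chek2, Trp53bp1, Brca1, Prkdc, Xrcc5 and Xrcc6, taken by name, with every probe that the arrays hold for them. They had 17 probes among 56605, and all 10 were among the 17436 genes tested out of 22911 that could be named. None of them passed the test for a change with radiation or with genotype. Few genes did, between 0.0516% and 1.18% of all genes in these contrasts. Cdkn1a, the p53-induced inhibitor of the cell cycle, rose in the same irradiated cortices. A single probe of Trp53bp1, out of 4, passed the test for genotype in irradiated cortex (log2 difference 0.97, limma). Its difference in sham cortex was 0.81 and did not pass (adjusted p = 0.207, limma). In irradiated cortex 1 of 17 member probes passed, against 4.67% of all probes. Among the other genes of the pathway, the transcript of the kinase gene Atm differed between genotypes in sham and in irradiated cortex. Each genotype lay on its own slide, so genotype and slide cannot be told apart.

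Cortex RNA from 16 male mice on a C57BL/6 background was hybridised to Agilent 1-colour arrays, 1 mouse per array, in 4 groups of 4. Wild-type littermates and mice labelled as Neil1 knockouts (Neil1 encodes a DNA glycosylase of base excision repair) were given either 6 Gy of whole-body gamma radiation at 0.74 Gy/min or a sham exposure. The age given for all groups is 28 to 42 weeks. BrdU, a thymidine analogue, was injected in all groups, with 1 dose of 100 mg/kg given before and 1 given 2 h after the exposure, and cortex was collected at 20 h. The groups are called wild-type sham, wild-type irradiated, labelled knockout sham and labelled knockout irradiated. RNA came from whole cortex, so fewer cells of a type and less RNA per cell cannot be told apart.

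A double-strand break is bound early by the MRN complex, of which Rad50 is the tethering ATPase and Nbn (nibrin) the subunit that recruits the kinase ATM. Breaks with bare single strands also activate the kinase ATR, and the checkpoint kinases Chk2 and Chk1 pass the signals of ATM and ATR on to p53 and the cell cycle machinery, largely by phosphorylation of proteins already present. The mediators 53BP1 (Trp53bp1) and BRCA1 favour end joining and homologous recombination respectively. In non-dividing cells such as neurons, breaks are joined mainly by the end joining route, in which the Ku heterodimer (Xrcc6 encodes Ku70 and Xrcc5 encodes Ku80) holds the end and recruits DNA-PKcs, the kinase encoded by Prkdc.

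The 250 bases upstream of the annotated start are shown for Brca1, Chek2 and Xrcc6, whose windows hold a motif known from cell cycle promoters, and for Chek1, a checkpoint gene whose window holds none. They are shown for reference, and the part of any motif in the values of these arrays was not tested. The windows were read from RefSeq on GRCm38.p6 for the 7 members listed there, and capitals mark a CCAAT box or the E2F-type motif TTTCCCGC on either strand, so that ATTGG and GCGGGAAA are their complements.
Brca1, chr11:101551956-101552205, minus strand: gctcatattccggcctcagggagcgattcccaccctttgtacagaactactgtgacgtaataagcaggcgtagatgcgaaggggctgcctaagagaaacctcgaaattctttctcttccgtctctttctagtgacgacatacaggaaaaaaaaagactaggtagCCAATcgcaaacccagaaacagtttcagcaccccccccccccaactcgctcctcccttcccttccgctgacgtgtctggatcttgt
Chek2, chr5:110839733-110839982, plus strand: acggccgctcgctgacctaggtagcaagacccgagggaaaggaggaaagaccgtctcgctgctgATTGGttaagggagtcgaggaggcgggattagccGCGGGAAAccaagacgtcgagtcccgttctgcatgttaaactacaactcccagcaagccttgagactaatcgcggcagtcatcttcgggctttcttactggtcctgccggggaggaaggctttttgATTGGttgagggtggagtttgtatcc
Xrcc6, chr15:82016119-82016368, plus strand: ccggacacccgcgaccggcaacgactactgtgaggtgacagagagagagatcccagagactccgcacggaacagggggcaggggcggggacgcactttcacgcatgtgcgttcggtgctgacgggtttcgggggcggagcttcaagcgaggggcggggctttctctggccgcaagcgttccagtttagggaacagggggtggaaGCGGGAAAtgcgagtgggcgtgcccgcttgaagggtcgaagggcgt
Chek1, chr9:36726659-36726908, minus strand: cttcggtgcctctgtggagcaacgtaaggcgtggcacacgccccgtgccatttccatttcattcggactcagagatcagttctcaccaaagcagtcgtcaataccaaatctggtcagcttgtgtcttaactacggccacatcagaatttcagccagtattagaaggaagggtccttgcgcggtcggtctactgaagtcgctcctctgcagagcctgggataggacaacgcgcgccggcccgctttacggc
Among the 7 windows, CCAAT was found in those of Brca1, Chek2 and Xrcc5, against 33.8% of all 32851 RefSeq windows of that length. TTTCCCGC was found in those of Chek2 and Xrcc6, against 0.895% of all windows. The cell cycle homology region motif TTTGAA (16% of all windows), the other E2F-type motif TTTGGCGC (0.417%) and the NRF1 motif (0.782%), each searched on both strands, were found in none of the 7. Of 18 genes of S, G2 and M phase with a window, 14 held CCAAT, 6 held TTTGAA, 2 held TTTGGCGC, 1 held TTTCCCGC and 0 held the NRF1 motif. A match is a match of letters only.

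Some facts of the whole set of arrays bear on the values. Levels here are log2 processed signals minus the 75th percentile of their array. The mean log2 level of 10 neuron markers ranged from 3.54 to 3.79 over wild-type sham, 3.66 to 3.88 over wild-type irradiated, 3.86 to 4.0 over labelled knockout sham and 3.88 to 4.04 over labelled knockout irradiated arrays, so the labelled knockout arrays lay above the wild-type arrays of the same treatment. Of these markers 9 of 10 were higher in labelled knockout cortex in both treatments, where the median log2 difference over all genes was -0.02 in sham and -0.03 in irradiated cortex. None passed limma's test. At an unadjusted p under 0.05 the counts were 1 of 10 in sham and 3 of 10 in irradiated cortex, against 7.69% and 16.6% of all genes. The part of this in the genotype differences of the members was not tested. The 75th percentile of the processed signal was 2415 ± 274 in wild-type sham, 2301 ± 235 in wild-type irradiated, 1778 ± 343 in labelled knockout sham and 1333 ± 301 in labelled knockout irradiated arrays (mean ± SD, n = 4), and 62.4% to 72.4% of probes were well above background. All wild-type arrays lay on 1 slide and all labelled knockout arrays on the other, so genotype and slide cannot be told apart, and on each slide the sham arrays lay in the first row and the irradiated arrays in the second. The Neil1 probe ranged from -4.32 to -3.30 over the 8 wild-type arrays and from -2.60 to -2.15 over the 8 labelled knockout arrays. It was brighter in the latter by 1.27 ± 0.19 on the log2 scale (SE) in sham and 1.39 ± 0.19 in irradiated cortex (limma, adjusted p = 0.0246 and 0.00725), and the sources used here do not say whether it lies in the deleted part, so the genotypes rest on the labels.

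The question of the first comparison was whether irradiated cortex held more or less of these transcripts than sham cortex. In wild-type mice 0 of 10 members passed limma's test at an adjusted p under 0.05, against 0.0746% of all genes. In labelled knockout mice 0 of 10 passed, against 0.12% of all genes, and averaged over both genotypes 0 of 10 passed, against 0.304%. At an unadjusted p under 0.05 the count was also 0 of 10 in each, against 1.97%, 4.63% and 5% of all genes. The median log2 difference of the 10 members was 0.035 in wild-type and 0.043 in labelled knockout cortex, beside medians over all genes of 0.014 and -0.001. In each genotype 8 of 10 members lay above 0, against 54.5% and 49.8% of all genes. The mean level of the 10 members spanned -1.70 to -1.47 over the wild-type sham arrays, -1.57 to -1.47 over wild-type irradiated, -1.66 to -1.56 over labelled knockout sham and -1.67 to -1.47 over labelled knockout irradiated arrays, so the 4 ranges overlapped.

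The Cdkn1a transcript showed what a radiation response looked like on the same arrays. The level of Cdkn1a was -0.79, -0.72, -1.15 and -1.20 in wild-type sham and 0.77, 0.71, 0.36 and -0.01 in wild-type irradiated cortex. In labelled knockout mice it was -0.29, -0.72, -1.02 and -0.54 in sham and 0.78, 0.39, 0.54 and 0.57 in irradiated cortex. Irradiated and sham arrays did not overlap in either genotype, as held for 1.96% of all genes in wild-type and 2.19% in labelled knockout mice. Cdkn1a was 2.68-fold higher in wild-type and 2.32-fold higher in labelled knockout cortex after irradiation (limma, adjusted p = 0.00472 and 0.0223). The second of these calls was lost when labelled knockout irradiated replicate 1 or 4, or labelled knockout sham replicate 2, 3 or 4, was left out (adjusted p between 0.0587 and 0.0992). It was also lost with the array median in place of the 75th percentile (adjusted p = 0.0946), in a fit of the 2 groups alone (0.136) and without the 2 dimmest arrays (0.22), and the call in wild-type mice was lost in a fit of the 2 groups alone (0.145). A second Cdkn1a probe was well above background on 0 of 4 sham and 4 of 4 irradiated arrays in each genotype. It gave a rise of at least 8.88-fold in wild-type and at least 6.07-fold in labelled knockout cortex. For this bound the sham mean was taken at the lowest signal well above background on each array, or the probe's own signal where higher. This probe passed the filter of at least 4 arrays well above background through its irradiated arrays alone, so its limma p-values are not used here.

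**Figure D1:**
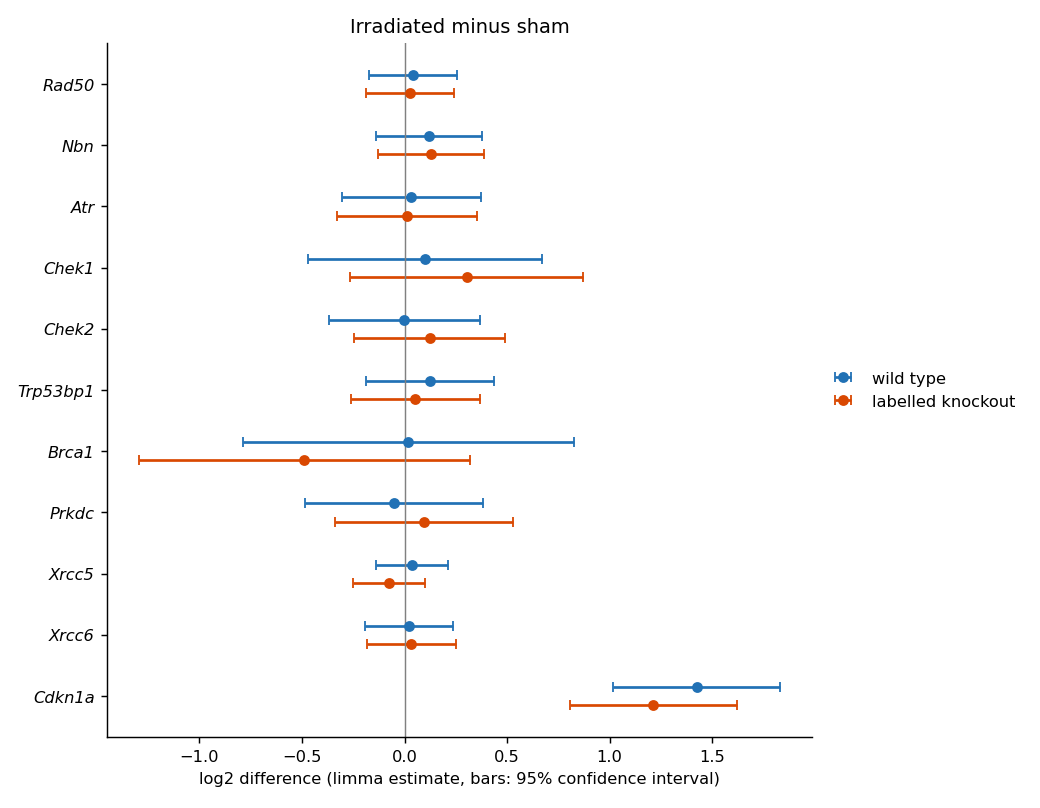
Estimated log2 difference between irradiated and sham cortex (x axis) for the 10 members and Cdkn1a (rows), with 95% confidence intervals from limma as bars, in wild-type mice (blue) and labelled knockout mice (orange). Every member's interval crosses 0, those of Brca1 and Chek1 being the widest, and both intervals of Cdkn1a lie above 0.

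Of the MRN genes, Rad50 was level across the study. On its brighter probe the log2 level was -0.51, -0.54, -0.74 and -0.57 in wild-type sham and -0.43, -0.47, -0.82 and -0.46 in wild-type irradiated cortex. It was -0.54, -0.69, -0.48 and -0.62 in labelled knockout sham cortex and -0.46, -0.56, -0.56 and -0.65 in labelled knockout irradiated cortex. All 4 groups overlapped, and the lowest array was wild-type irradiated replicate 3. Averaged over genotypes, irradiated cortex held 1.02-fold the sham level, with a 95% interval of 0.922 to 1.14, so the interval leaves no room for a rise or fall as large as that of Cdkn1a. The dimmer Rad50 probe gave an average log2 difference of 0.10 (95% interval -0.14 to 0.33).

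Nbn had the smallest unadjusted p of the 10 members for the average radiation contrast (0.169, limma, adjusted p = 1). Its levels were -1.11, -1.27, -0.98 and -1.23 in wild-type sham and -1.20, -1.15, -0.91 and -0.85 in wild-type irradiated cortex. They were -1.08, -1.23, -0.95 and -1.35 in labelled knockout sham cortex and -1.12, -1.17, -0.99 and -0.81 in labelled knockout irradiated cortex. Wild-type irradiated replicates 3 and 4 and labelled knockout irradiated replicate 4 lay above all sham arrays of their genotype, and the other irradiated arrays lay among them. The average difference was 1.09-fold, with a 95% interval of 0.96 to 1.24.

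Among the kinases, Atr, whose product answers to single-stranded DNA at stalled forks and resected ends, ranged from -0.47 to -0.11 in wild-type sham, from -0.53 to 0.04 in wild-type irradiated, from -0.78 to -0.27 in labelled knockout sham cortex and from -0.82 to -0.31 in labelled knockout irradiated cortex. Irradiated and sham arrays overlapped in both genotypes, and the average radiation difference was 1.02-fold (95% interval 0.86 to 1.20). Prkdc, which encodes the catalytic kinase of end joining, ranged from -1.83 to -1.0, from -1.63 to -1.04, from -1.56 to -1.32 and from -1.81 to -1.02 in the same order of groups. Its average difference was 1.02-fold with a wider interval, 0.821 to 1.26. A second, dimmer Prkdc probe was well above background on 10 of 16 arrays only, and gave an average difference of -0.43 (95% interval -1.12 to 0.25).

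Chek1 and Chek2, the checkpoint kinase genes, were dim on these arrays. On its brighter probe Chek1 lay at -5.53, -5.81, -6.04 and -5.80 in wild-type sham and at -6.01, -5.80, -5.87 and -5.10 in wild-type irradiated cortex. It lay at -6.22, -6.04, -5.86 and -5.37 in labelled knockout sham cortex and at -5.94, -4.90, -6.08 and -5.34 in labelled knockout irradiated cortex. A few arrays set the spread, the highest being labelled knockout irradiated replicate 2, and the groups overlapped. The average radiation difference of Chek1 was 1.15-fold, with a 95% interval of 0.87 to 1.52. The other Chek1 probe, well above background on 14 of 16 arrays, gave a log2 difference of the opposite sign, -0.20 (95% interval -0.48 to 0.08) where the first gave 0.20. For Chek2 the average radiation difference was 1.04-fold (95% interval 0.87 to 1.25).

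The mediator gene Trp53bp1 is measured by 4 probes, of which 3 match one RefSeq transcript and the fourth, A_55_P2731296, another. On the brightest probe the level was 1.05, 1.07, 0.67 and 0.63 in wild-type sham and 1.31, 0.96, 0.87 and 0.78 in wild-type irradiated cortex. It was 1.12, 0.93, 0.99 and 0.79 in labelled knockout sham cortex and 1.14, 0.90, 1.21 and 0.79 in labelled knockout irradiated cortex. The 4 groups overlapped, and the average radiation difference was 1.06-fold (95% interval 0.912 to 1.24). The probe A_52_P364757 differed from it, with an average radiation difference of 0.45 (95% interval 0.18 to 0.72) whose unadjusted p was 0.0031 and whose adjusted p over all probes was 0.463 (limma). No probe of any member passed in any of the 3 radiation contrasts, against 0.0404% of all 39589 kept probes in wild-type, 0.0455% in labelled knockout and 0.147% in averaged cortex. At an unadjusted p under 0.05, 0 of 17 member probes passed in wild-type cortex, against 1.86% of all probes, and 1 of 17, this Trp53bp1 probe, passed in labelled knockout cortex and in the average, against 6.04% and 5.67%.

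Brca1, which encodes the ubiquitin ligase that promotes recombination at breaks, varied most from mouse to mouse. Its levels were -3.41, -2.63, -3.84 and -3.51 in wild-type sham and -2.71, -3.78, -2.87 and -3.95 in wild-type irradiated cortex. They were -3.09, -3.16, -3.31 and -4.52 in labelled knockout sham cortex and -3.80, -3.74, -3.81 and -4.69 in labelled knockout irradiated cortex. Replicate 4 was the lowest in both labelled knockout groups, and the groups overlapped. The log2 difference between irradiated and sham cortex was 0.02 in wild-type (95% interval -0.79 to 0.82) and -0.49 in labelled knockout mice (95% interval -1.29 to 0.32), and the difference between these effects had an interval of -1.65 to 0.63.

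The Ku genes, whose products bind the broken end itself, had narrow intervals. Xrcc6 (Ku70) lay at 1.20, 1.27, 1.30 and 1.35 in wild-type sham and at 1.10, 1.43, 1.42 and 1.25 in wild-type irradiated cortex. It lay at 0.93, 1.21, 1.23 and 1.20 in labelled knockout sham cortex and at 1.27, 1.16, 1.03 and 1.26 in labelled knockout irradiated cortex. Irradiated arrays lay on both sides of the sham arrays in wild-type mice, and the average difference was 1.02-fold (95% interval 0.917 to 1.13). Xrcc5 (Ku80) had an average difference of 0.987-fold (95% interval 0.905 to 1.08).

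**Figure D2:**
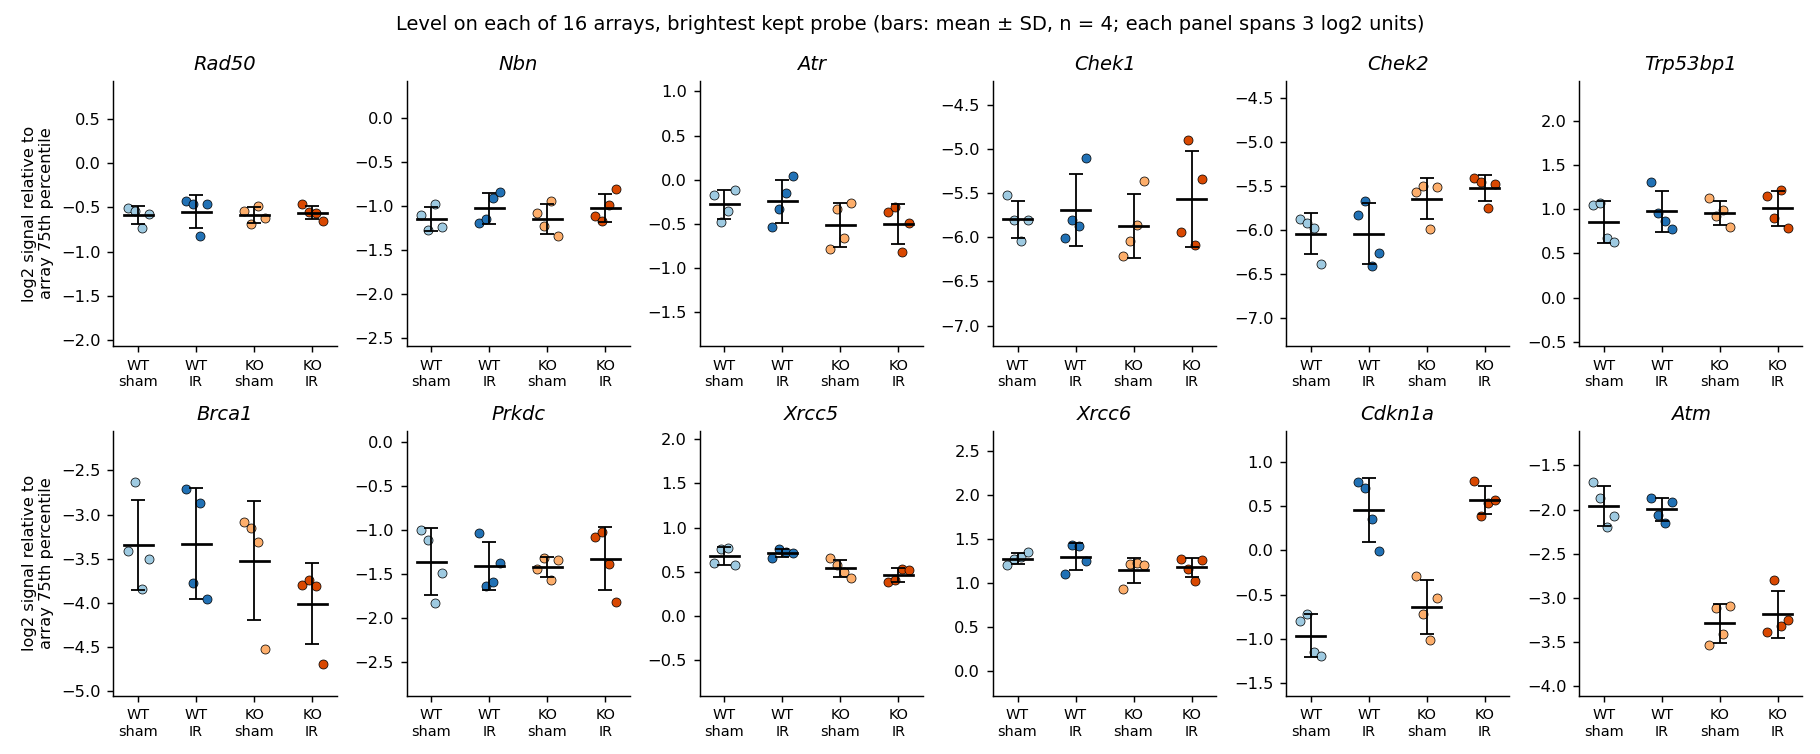
Level of the 10 members, Cdkn1a and Atm on each of the 16 arrays (y axis, log2 signal minus the 75th percentile of its array, each panel spanning 3 log2 units), by group on the x axis, with 1 point per mouse and bars for the mean ± SD (n = 4; IR, irradiated; KO, labelled knockout). Cdkn1a separates irradiated from sham arrays and Atm separates the genotypes, while in the member panels Xrcc5 is separated by genotype in irradiated cortex alone.

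How far the mice differed within a group set what could be seen. The residual SD of a log2 level, after the 4 group means, was 0.57 for Brca1, 0.40 for Chek1 and 0.30 for Prkdc, beside a median of 0.25 over all genes. It was 0.25 for Chek2, 0.23 for Atr, 0.21 for Trp53bp1 and 0.16 for Nbn. It was 0.12 for both Xrcc6 and Rad50 and 0.08 for Xrcc5, which placed Xrcc5 at the 0.99 percentile of all genes and Brca1 at the 88.6 percentile. On each gene's brightest kept probe, the average radiation effect had a 95% interval ending at 1.52-fold or less in all 10 members. The highest upper end was that of Chek1, with Brca1 next at 1.26-fold. The lower ends on these probes were 0.573-fold for Brca1 and 0.821-fold or more for the other 9. Some dimmer probes had wider bounds, up to a log2 difference of 0.72 for Trp53bp1 probe A_52_P364757 and down to -1.12 for Prkdc. Within labelled knockout cortex alone the interval of Brca1 reached down to 0.408-fold. The interval of Cdkn1a, averaged over genotypes, began at 2.04-fold.

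On its brighter probe, the spread of Brca1 between mice went with the level of genes of the striatum and thalamus, regions outside the cortex. The mean log2 level of 6 such markers (Drd1, Drd2, Adora2a, Ppp1r1b, Tcf7l2 and Prkcd) ranged from -0.51 to 1.71 over the wild-type sham arrays, from -1.37 to 1.40 over wild-type irradiated, from -0.67 to 1.28 over labelled knockout sham and from -0.77 to 0.79 over labelled knockout irradiated arrays. Over the 16 arrays Brca1 correlated with it with Pearson's r = 0.772 (permutation p = 0.0004, 0.0504 adjusted over 120 relations) and Spearman's rho = 0.865 (adjusted permutation p = 0.0036). Without the 2 arrays farthest from the median marker level, r was 0.747. On the wild-type slide r was 0.942 over 8 arrays and on the labelled knockout slide it was 0.707 over 8. Over all 16, Brca1 also moved with the oligodendrocyte precursor markers (r = 0.592, rho = 0.676) and the microglia markers (r = 0.607, rho = 0.565). For the microglia markers r was 0.311 and 0.707 on these slides, and for the S, G2 and M phase genes -0.265 and 0.719. The relations were computed for the 10 members, each on its brightest kept probe, against 12 measures of each array. Of the 120, 0 had an adjusted Pearson p under 0.05. On the dimmer Brca1 probe, replicate 4 of the labelled knockout sham and irradiated groups lay at -5.99 and -5.45, above replicates 1 and 2. Those replicate 4 arrays had the lowest marker levels in their groups. With the marker level as a covariate, chosen after seeing the data, the radiation difference of Brca1 in labelled knockout cortex was -0.44 ± 0.21 (SE; limma, adjusted p = 0.992), beside -0.49 ± 0.38 without it. With the same covariate the genotype difference of Brca1 in irradiated cortex was -0.69 (95% interval -1.13 to -0.24; adjusted p = 0.110, limma).

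**Figure D3:**
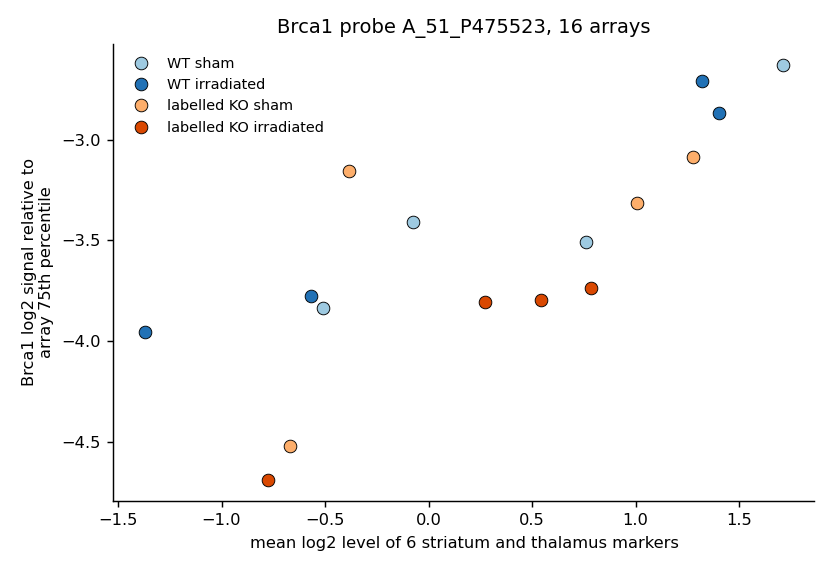
Level of the brighter Brca1 probe on each array (y axis, log2 signal minus the 75th percentile of its array) against the mean log2 level of 6 striatum and thalamus markers on the same array (x axis), with colours for the 4 groups. Arrays with more of the marker transcripts had more signal on this Brca1 probe within both genotypes (r = 0.942 in wild-type and 0.707 in labelled knockout arrays).

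The second comparison asked whether the labelled knockout cortices differed from wild type. In sham cortex 0 of 10 members passed limma's test at an adjusted p under 0.05, against 0.0516% of all genes, and 1 of 10 had an unadjusted p under 0.05, against 7.69%. In irradiated cortex 0 of 10 passed, against 1.18% of all genes, and 2 of 10 had an unadjusted p under 0.05, against 16.6%. The difference between the radiation effects of the genotypes passed for 0 of 10 members and 0% of all genes, and at an unadjusted p under 0.05 for 0 of 10 members and 1.27% of all genes. The median log2 difference of the members between genotypes was -0.07 in sham and -0.003 in irradiated cortex, beside -0.02 and -0.03 over all genes. The members with an unadjusted p under 0.05 were Chek2, in both treatments, and Xrcc5, in irradiated cortex.

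The level of Xrcc5 was 0.60, 0.76, 0.76 and 0.58 in wild-type sham and 0.65, 0.75, 0.72 and 0.71 in wild-type irradiated cortex. It was 0.65, 0.58, 0.49 and 0.43 in labelled knockout sham cortex and 0.38, 0.41, 0.54 and 0.52 in labelled knockout irradiated cortex. After irradiation every labelled knockout array lay below every wild-type array, which held for 1 of 10 members and for 4.44% of all genes (8.73% with either direction), and in sham cortex 0 of 10 members were without overlap, against 4.8% of all genes. The log2 difference after irradiation was -0.25 (95% interval -0.42 to -0.07; exact permutation p = 0.0286, the smallest that 4 against 4 arrays can give), and its adjusted p was 0.139 (limma). In sham cortex it was -0.14 (95% interval -0.31 to 0.04). The 75th percentile of the signal, which differed between the slides, moved with Xrcc5 over the 16 arrays. Pearson's r was 0.709 (unadjusted permutation p = 0.0025) and Spearman's rho was 0.771. Of the 120 relations computed, 0 had an adjusted Pearson p under 0.05. Without the 2 arrays farthest from the median 75th percentile r was 0.794. Within the wild-type slide r was 0.0026 and within the other 0.363. The part of the 75th percentile in the difference was not tested. The mean level of the neuron markers moved with Xrcc5 in the opposite sense, with r = -0.697 (permutation p = 0.00256, 0.102 adjusted over the 120 relations) and rho = -0.729, and r was -0.61 without the 2 farthest arrays. Within the slides r was -0.363 and -0.0281, and the part of this was not tested either. The genes whose pattern over the 16 arrays was most like that of Xrcc5, by the root mean square difference of centred log2 levels, were Letm1 (0.0459), Exosc8 (0.0466) and Rnf214 (0.0492), beside a median of 0.274 over 17379 genes.

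Chek2 lay at -5.88, -5.93, -5.97 and -6.39 in wild-type sham and at -5.83, -5.67, -6.41 and -6.26 in wild-type irradiated cortex. It lay at -5.57, -5.50, -5.99 and -5.52 in labelled knockout sham cortex and at -5.41, -5.46, -5.75 and -5.48 in labelled knockout irradiated cortex. The labelled knockout arrays lay above the wild-type arrays of the same treatment, apart from replicate 3 of each labelled knockout group, which lay among them. The log2 difference was 0.40 in sham (95% interval 0.03 to 0.77; limma, unadjusted p = 0.0375, adjusted p = 0.614) and 0.52 in irradiated cortex (95% interval 0.15 to 0.89; unadjusted p = 0.0093, adjusted p = 0.141). Under normexp background correction the difference in irradiated cortex was 0.69 with an adjusted p of 0.00165 (limma), in a fit that called 3382 of 17436 genes, and under quantile normalisation it was 0.23 with an adjusted p of 0.615. Chek2 moved with the mean level of the neuron markers over the 16 arrays, with r = 0.666 (permutation p = 0.00502, 0.151 adjusted over the 120 relations) and rho = 0.721, and r was 0.684 without the 2 farthest arrays. Within the wild-type slide r was 0.318 and within the other -0.00113, and the part of this in the difference was not tested.

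**Figure D4:**
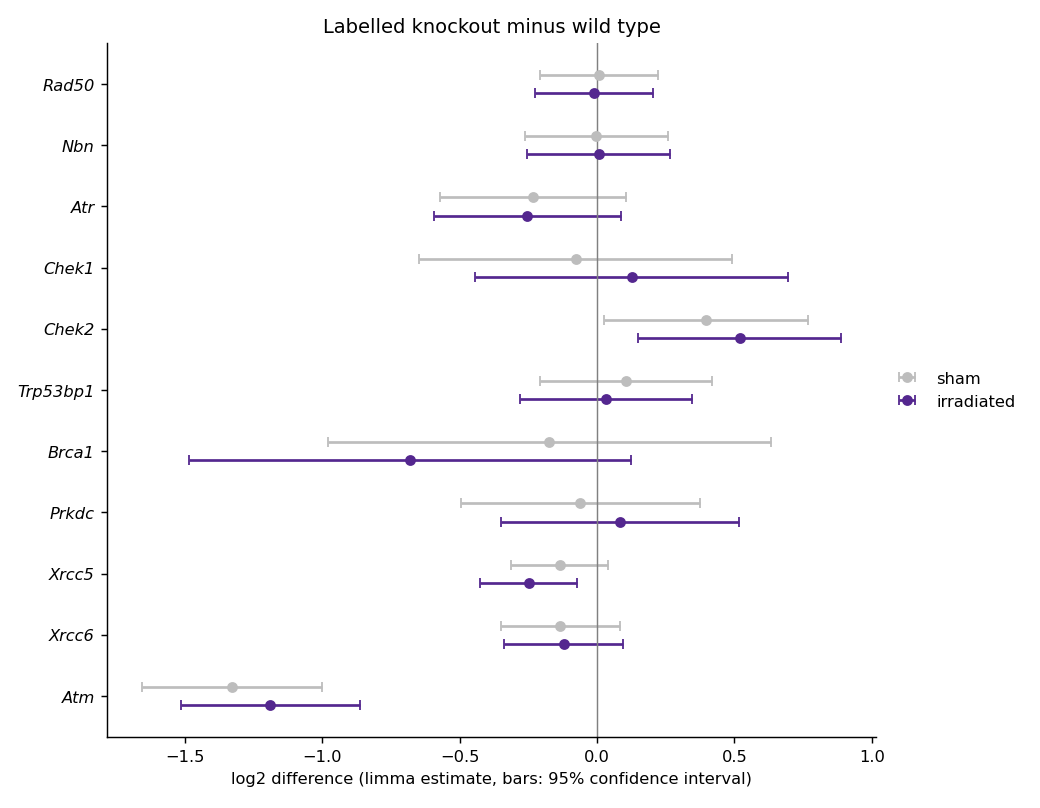
Estimated log2 difference between labelled knockout and wild-type cortex (x axis) for the 10 members and Atm (rows), with 95% confidence intervals from limma as bars, in sham (grey) and irradiated (purple) mice. The intervals of Chek2 in both treatments and of Xrcc5 in irradiated cortex exclude 0 without passing after adjustment, and the intervals of Atm end at -1.0 in sham and -0.86 in irradiated cortex.

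The other members lay close between genotypes or had wide intervals. Rad50 differed by 0.01 in sham and -0.01 in irradiated cortex on the log2 scale, and Nbn by -0.00 and 0.01, with every bound of these 4 intervals within 0.27 of 0. Xrcc6 differed by -0.13 and -0.12, and Atr by -0.23 and -0.25, with intervals that cross 0. Prkdc differed by -0.06 and 0.08, and Chek1 by -0.08 and 0.13 on its brighter probe. The other Chek1 probe gave -0.31 and -0.53, but it was well above background on only 2 of the 4 labelled knockout irradiated arrays, so the second value rests partly on signal not well above background. Brca1 differed by -0.17 and by -0.68 (95% interval -1.48 to 0.12) on its brighter probe, and by 0.00 and 0.70 (95% interval 0.05 to 1.34) on its dim one, which was well above background on 3 of 4 arrays in each irradiated group, so its probes gave opposite signs in irradiated cortex.

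A Trp53bp1 probe was the single member probe that passed. On A_52_P364757 the level was -4.11, -3.96, -4.63 and -4.21 in wild-type sham and -3.58, -3.95, -4.09 and -3.83 in wild-type irradiated cortex. It was -3.66, -3.58, -3.20 and -3.24 in labelled knockout sham cortex and -2.87, -3.16, -2.53 and -2.99 in labelled knockout irradiated cortex. The labelled knockout arrays lay above the wild-type arrays in both treatments without overlap. Over all genes, with 1 probe each, the groups did not overlap for 4.8% in sham and 8.73% in irradiated cortex. The share over all probes was not computed. The log2 difference was 0.97 in irradiated cortex (95% interval 0.59 to 1.35; limma, adjusted p over all probes 0.012) and 0.81 in sham cortex (95% interval 0.43 to 1.19; adjusted p = 0.207). That was 1 of 17 member probes in irradiated cortex, against 4.67% of all probes, and 0 of 17 in sham cortex, against 0.0455%. At an unadjusted p under 0.05 the counts were 5 of 17 in irradiated and 3 of 17 in sham cortex, against 20.6% and 9.04% of all probes. Without wild-type irradiated replicate 3 the adjusted p was 0.0516, and it also missed the threshold under quantile normalisation, with the array median, with the deposited scores and without the 2 dimmest arrays. On this probe the radiation effects of the genotypes differed by 0.17 (95% interval -0.37 to 0.71, limma, unadjusted p = 0.518). The genotype differences in sham and irradiated cortex were thus not told apart.

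The other 3 Trp53bp1 probes did not pass. The brightest gave a log2 difference between genotypes of 0.10 in sham and 0.03 in irradiated cortex (95% intervals -0.22 to 0.43 and -0.29 to 0.36). The probe A_55_P2731261 gave 0.18 and 0.19, and A_55_P2731296 gave 0.51 and 0.48. In irradiated cortex the intervals of A_52_P364757 and of the brightest probe did not overlap, so the genotype difference of Trp53bp1 depends on the probe read. From wild-type sham and irradiated to labelled knockout sham and irradiated arrays, the mean of A_52_P364757 was -4.23, -3.86, -3.42 and -2.89. In the same order the 75th percentile of the signal was 2415, 2301, 1778 and 1333. The part of array brightness in the values of this probe was not tested.

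**Figure D5:**
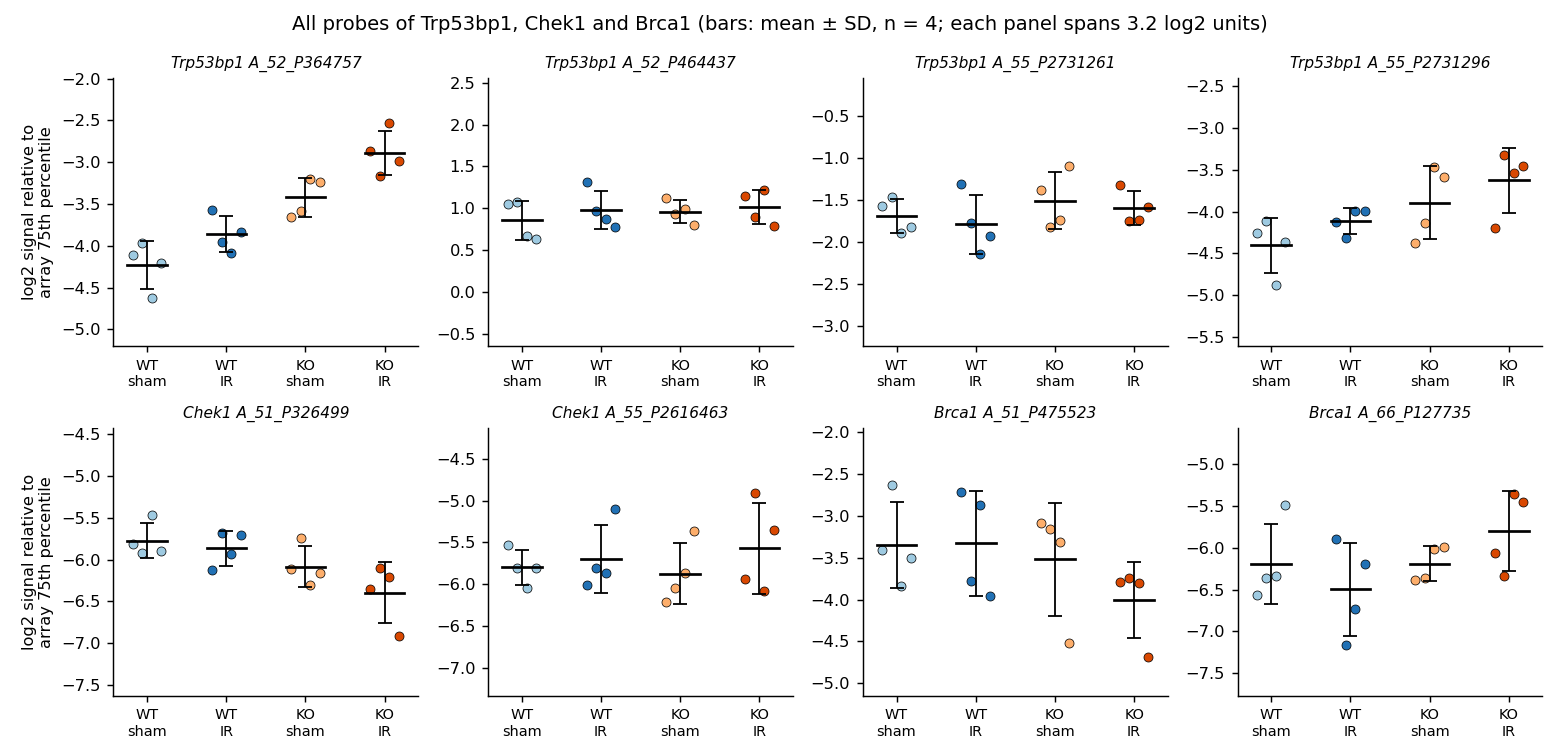
Level of each probe of Trp53bp1, Chek1 and Brca1 on the 16 arrays (y axis, log2 signal minus the 75th percentile of its array, each panel spanning 3.2 log2 units), by group on the x axis, with bars for the mean ± SD (n = 4). The mean of the Trp53bp1 probe A_52_P364757 was -4.23 in wild-type sham and -2.89 in labelled knockout irradiated arrays, while the group means of the brightest probe of the same gene lay between 0.85 and 1.01.

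Of 45 further genes of break signalling and repair, 44 could be tested (Brip1 could not), and the list was chosen with earlier results of these data known. None of the 44 passed for radiation in either genotype or on average (limma), and at an unadjusted p under 0.05 the count was 0, 0 and 2. Over all genes 0.0746%, 0.12% and 0.304% passed, and 1.97%, 4.63% and 5% had an unadjusted p under 0.05. The smallest p-values for the average were those of Topbp1, an activator of ATR, with a log2 difference of -0.17 (95% interval -0.32 to -0.02), Rnf8, a ubiquitin ligase at breaks, with 0.16 (0.01 to 0.31), and Mdm2, the p53 ubiquitin ligase, with 0.15 (-0.02 to 0.32). Their adjusted p-values were 0.879, 0.914 and 1. The median of the list was -0.03, beside 0.004 over all genes.

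Between genotypes 1 of the 44 passed in sham and 1 in irradiated cortex, against 0.0516% and 1.18% of all genes, and 6 of 44 had an unadjusted p under 0.05 in each, against 7.69% and 16.6%. The median log2 difference of the 44 was -0.07 in sham and -0.10 in irradiated cortex. Over all genes the medians also lay below 0, at -0.02 and -0.03. The mean level of the 44 ranged from -0.91 to -0.85 over wild-type sham and from -1.06 to -0.94 over labelled knockout sham arrays, without overlap, and from -0.94 to -0.83 and from -1.07 to -0.93 over the irradiated arrays. The gene that passed both times was Atm, the kinase that starts the response to breaks and phosphorylates Chk2. Its level was -1.69, -1.87, -2.20 and -2.08 in wild-type sham and -1.87, -2.07, -2.15 and -1.91 in wild-type irradiated cortex. It was -3.54, -3.11, -3.40 and -3.09 in labelled knockout sham cortex and -3.39, -2.80, -3.31 and -3.25 in labelled knockout irradiated cortex. Every labelled knockout array lay below every wild-type array. Of the 44 genes, 4 in sham and 3 in irradiated cortex were without overlap between genotypes, against 4.8% and 8.73% of all genes. The log2 difference was -1.33 ± 0.15 in sham and -1.19 ± 0.15 in irradiated cortex (SE; limma, adjusted p = 0.00184 and 0.00463), and a second Atm probe gave -1.02 and -1.0. The irradiated level was on average 1.02-fold the sham level (95% interval 0.87 to 1.20). Without the 2 dimmest arrays, both labelled knockout irradiated, the adjusted p in irradiated cortex was 0.0819. Atm lies on chromosome 9, as does Neil1, with 47 protein-coding genes between them out of 1201 on the chromosome. The members Atr and Chek1 lie on the same chromosome with 281 and 307 protein-coding genes between them and Neil1, and neither passed between genotypes. The direction again rests on the labels, and slide and genotype cannot be told apart for it.

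Some p53-induced genes and some cell cycle genes passed the test for radiation on these arrays. Of 16 p53-induced arrest and checkpoint genes, 3 rose in wild-type, 4 in labelled knockout and 4 in averaged cortex (limma, adjusted p under 0.05), against 0.0746%, 0.12% and 0.304% of all genes, the 4 being Cdkn1a, Eda2r, Trp53inp1 and Gtse1. Of 18 tested genes of S, G2 and M phase, 0 passed in wild-type, 1 was lower in labelled knockout (Cenpf) and 4 were lower on average (Ccnb1, Cenpf, Nusap1 and Ube2c), and 9, 6 and 8 had an unadjusted p under 0.05, against 1.97%, 4.63% and 5% of all genes. The mean level of these 18 ranged from -3.74 to -3.22 over wild-type sham and from -4.21 to -4.11 over wild-type irradiated arrays, and from -3.73 to -3.25 and from -4.40 to -3.89 in labelled knockout mice. Sham and irradiated arrays did not overlap in this mean, whereas they overlapped in the mean of the 10 members. Markers of other cells moved beside them. Of 6 markers of oligodendrocyte precursors, cells that divide in the adult brain, 0 passed in wild-type cortex, 2 (Gpr17 and Neu4) were lower in labelled knockout and in averaged cortex, and 6 of 6 were below 0 on average. Their mean level ranged from 0.39 to 0.76 over wild-type sham, 0.12 to 0.52 over wild-type irradiated, 0.46 to 0.53 over labelled knockout sham and 0.06 to 0.23 over labelled knockout irradiated arrays. Of 7 microglia markers 1, P2ry12, was lower in each radiation contrast, and 7 of 7 were below 0. Their mean level ranged from 1.64 to 1.88, 1.38 to 1.59, 1.40 to 1.76 and 1.20 to 1.48 over the same 4 groups. The part of these in the cell cycle counts was not tested.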

How the data were processed

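RNA of 16 mouse cortices was measured, 1 array each, and groups and replicate numbers were taken from the sample titles. The spot intensity is the processed signal of Agilent Feature Extraction, background-subtracted and not scaled between arrays, per the file headers. The authors also deposited a table of scores for 42859 features per array, made in a way not given in the sources used here. It correlated with its own array's log signal with r of 0.9996 or more, had mean 0 and SD 1, and served as an alternative. The deposited flags told which spots were well above background, saturated or outliers.

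The log2 processed signal minus the array's 75th percentile was averaged over spots of a probe, with outlier spots left out. Probes well above background on at least 4 of 16 arrays were kept (39589 of 56605), with values on at least 12, and 32994 of the 35886 probes carrying RefSeq accessions found a name in a RefSeq table of GRCm38.p6, used for names, gene order and promoter windows because the array design names another build. The brightest kept probe stood for a gene. One limma 3.58.1 model (R 4.3.3, statmod 1.5.0; 12 residual degrees of freedom) gave 6 contrasts, with two-sided p-values adjusted by Benjamini-Hochberg over all 17436 genes, or over all kept probes. It was tested on simulated data. The number of arrays limits the precision. No 2 arrays held the same values.

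The members and gene lists were chosen with earlier results of these data known. Named were all members with all probes, Neil1, Cdkn1a, from 3 further lists every called gene (up to 6) or otherwise the 3 with the smallest p for the average radiation contrast, and the 3 genes most like the member with the smallest p. Deviations of same-numbered arrays of different groups correlated from -0.60 to 0.52 over 24 pairs (median 0.07, 11 over 0.1), beside a median of -0.05 over 72 other pairs (25 over 0.1). Between the labelled knockout sham and irradiated arrays the 4 same-number values were 0.52, 0.05, 0.27 and 0.37. Since not every pair was over 0.1, replicate numbers were not taken as pairs. Alternatives covered background correction, scaling, probe filter, variance model, array weights, a replicate block, the probe rule, the deposited scores and the omission of single arrays.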

Additional observations from a re-analysis of the deposited data

Results flagged for a closer look

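In groups of 4 arrays, a value was singled out when the share of the group's range taken by its gap to the nearest other array exceeded Dixon's 95% critical value. Of 68 groups, 4 for each of the 17 member probes, 6 met this, and chance alone gives about 1 in 20. Brca1 on its brighter probe had a low array in both labelled knockout groups, at -4.52 in sham replicate 4, where the others lay between -3.31 and -3.09, and at -4.69 in irradiated replicate 4, where the others lay between -3.81 and -3.74. Those arrays also held the lowest mean levels of striatum and thalamus markers in their groups, -0.67 and -0.77, and the part of this in the Brca1 values was not tested. Chek2 was low in labelled knockout sham replicate 3, at -5.99, against -5.57 to -5.50 in the others. Xrcc6 was low in labelled knockout sham replicate 1, at 0.93, against 1.20 to 1.23. Rad50 was low on its brighter probe in wild-type irradiated replicate 3, at -0.82, against -0.47 to -0.43, and on its dimmer probe in labelled knockout sham replicate 1, at -4.08, against -3.89 to -3.86.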

How the results depend on the processing

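Over 30 settings, 58 of the 60 pairs of member and contrast were called in none, and 23 kept their sign in all. The exceptions came under normexp background correction (offset 50, on median in place of mean signals), where Chek1 (0.59, adjusted p = 0.0108) and Chek2 (0.69, adjusted p = 0.00165) were called between genotypes in irradiated cortex; 2 members, 8 member probes and 3382 genes were then called there. The count of genes called between genotypes in irradiated cortex, 205, was 96 with quantile normalisation, 17 with the array median, 1798 with no filter on dim probes, 18 in a fit of the 2 groups alone, 434 with array weights, 494 with the mean of all kept probes, 76 with the deposited scores, 4 without the 2 dimmest arrays (chosen after seeing the data), and 17 (without wild-type irradiated replicate 3) to 470 (without wild-type irradiated replicate 1) with single arrays left out. Leaving out any of the 8 irradiated arrays moved it by over 1.5 times. The count of member probes called there, 1, was 0 with quantile normalisation, the array median, the deposited scores and without the 2 dimmest arrays, and 0 to 1 with single arrays left out. In sham cortex 1 member probe was called with array weights, and the count of genes, 9, was 2 in a fit of the 2 groups, 45 with array weights and 5 to 14 with single arrays left out. For radiation, the 21 genes of labelled knockout cortex became 11 with the array median, 6 in a fit of the 2 groups, 7 without the 2 dimmest arrays and 11 to 22 with single arrays left out; the 53 of the average became 26 with the array median, 84 with array weights and 38 to 47 with single arrays left out; the 13 of wild-type cortex became 21 with array weights and 10 to 16 with single arrays left out. With the replicate block, which here is also the column on the slide, the 21 genes became 13 and 0 members were called in any contrast. The array median shifted the median of all genes by 0.10 for radiation in wild-type cortex, by -0.20 between genotypes in irradiated cortex and by -0.17 for the difference of effects. Atm was called in 29 of 30 settings in each genotype contrast, with an adjusted p of 0.101 in sham cortex in a fit of the 2 groups. Neil1 was called in 22 of 30 settings in sham and 28 of 30 in irradiated cortex, and the Trp53bp1 probe A_52_P364757 in 23 of 28 in irradiated cortex. The cause was not tested for these shifts, except that a fit of 2 groups or without arrays has fewer samples. A slide block could not be fitted, since each slide holds 1 genotype.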
